A study of Rattus norvegicus with 98 samples.

Results

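The genes described here are the conjugating enzymes of the rat nasal lining: the glutathione transferases (Gst and Mgst), the UDP-glucuronosyltransferases (Ugt) and the sulfotransferases (Sult). They were taken by symbol from the probe annotation of the array (symbols starting with Gsta, Gstm, Gstp, Gstt, Gsto, Gstk, Gstz, Mgst, Ugt1, Ugt2 or Sult). This gave 45 genes out of the 14217 genes with a symbol of their own, namely 20 Gst, 3 Mgst, 8 Ugt and 14 Sult genes. Each gene was read by 1 probe set, the one with the highest mean over the 98 arrays. Another 3 probe sets carried the symbols of several members and are given apart: 1 shared by Gsta5 and Gsta2 and 2 shared by genes of the Ugt1a locus, so that Gsta2 and Ugt1a6 have no value of their own.

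Each of the 98 arrays held RNA of nasal epithelium from 1 male rat of the F344/NCrl strain at an age of 8 weeks. In a first array set, rats inhaled 0 (air), 0.7, 2 or 6 ppm formaldehyde with the whole body, 6 h per day and 5 days per week, with tissue taken 6 h, 24 h, 5 days, 8 days and 19 days after the start. In a later array set, all collected at 6 h, rats inhaled air or 15 ppm, or received 40 ul per nostril of distilled water or of 400 mM formaldehyde. The 24 groups held 4 rats each, except for 2 groups of 5 (air at 8 days and 2 ppm at 5 days). Per the labels the cells came mainly from transitional epithelium with some respiratory epithelium, and olfactory epithelium was cut away. All 12 olfactory marker genes measured were nevertheless brighter than the median probe set, among them Omp, the marker protein of olfactory neurons, and the olfactory P450 Cyp2g1. Deposited values are log2 signals between 2.67 and 14.83, and array medians lay between 5.93 and 6.07. The labels of 85 arrays state an RNA integrity number (7.2 to 8.8). The number of rats limits the precision of every value, and in mixed cells a smaller share of a cell type and less RNA per cell cannot be told apart.

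Conjugating enzymes attach a polar group to a reactive or fat-soluble compound so that it can leave the cell and the body. Glutathione transferases join electrophiles to the thiol of glutathione, UDP-glucuronosyltransferases add glucuronic acid from UDP-glucuronic acid, and sulfotransferases add sulfate from PAPS. The nasal lining is rich in such enzymes, which also end the action of odorants in olfactory tissue. Formaldehyde itself joins glutathione without an enzyme and is then oxidised by alcohol dehydrogenase Adh5. Several Gst genes are known targets of NRF2, a transcription factor that is set free when electrophiles modify its inhibitor Keap1.

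In rats that breathed air, most glutathione transferases and all 3 membrane-bound ones gave a bright signal, while the 7 Ugt2b genes did not. Both probe sets shared by Ugt1a genes, which are not counted among the 45, were bright. A probe set was called bright when its mean over the 98 arrays reached the median of all probe sets, 6.05. By that measure 26 of the 45 genes were bright: 16 of 20 Gst, 3 of 3 Mgst, 6 of 14 Sult and 1 of 8 Ugt genes. Signals of different probe sets are not amounts of RNA that can be set against each other, so the levels below describe each probe set alone. Every level is the mean ± SD of the 25 air rats on the log2 scale, 21 of the first array set and 4 of the later one. Where the sets differ, as for Sult5a1 and the Gsta5/Gsta2 shared probe set, that difference is part of the SD.

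Of the soluble transferases, Gstp1, the pi-class enzyme of many epithelia, gave 13.24 ± 0.16. Gstm1 and Gstm2, mu-class enzymes, gave 13.01 ± 0.18 and 12.49 ± 0.17. The alpha-class enzyme Gsta4, which handles the lipid aldehyde 4-hydroxynonenal, gave 11.57 ± 0.28, and its relatives Gsta1 and Gsta3 gave 11.18 ± 0.31 and 10.55 ± 0.35. These 6 genes were bright in every air rat, with the lowest single value at 9.96 for Gsta3. Gsto1, an omega-class enzyme that also reduces dehydroascorbate, gave 10.53 ± 0.21, the theta-class Gstt3 10.15 ± 0.16 and the mitochondrial Gstk1 9.61 ± 0.17. Of the membrane-bound enzymes Mgst1 gave 13.08 ± 0.12, Mgst3 10.86 ± 0.37 and Mgst2, which can make leukotriene C4, 9.97 ± 0.22. The dim Gst genes were Gsto2, Gstm3, Gsta3l1 and Gstp3, with means from 3.84 to 5.89.

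The only bright Ugt gene with a probe set of its own was Ugt2a1, the olfactory enzyme that glucuronidates odorants, at 11.27 ± 0.54. The 7 Ugt2b genes, liver enzymes for steroids and bile acids, had means between 2.98 and 4.86. Both probe sets shared by Ugt1a genes were bright, at 10.74 ± 0.18 and 9.52 ± 0.35. Among sulfotransferases Sult1c3 gave 13.32 ± 0.16, Sult5a1 9.87 ± 0.29, the phenol sulfotransferase Sult1a1 8.00 ± 0.54 and Sult2b1, the cholesterol sulfotransferase of squamous epithelium, 6.18 ± 0.48. Sult4a1, known from brain, gave 7.66 ± 0.53 and Sult1d1 8.36 ± 0.69. The hydroxysteroid enzymes Sult2a1, Sult2a2 and Sult2a6 and the estrogen enzyme Sult1e1 lay between 3.06 and 3.35, near the bottom of the scale.

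**Figure D1:**
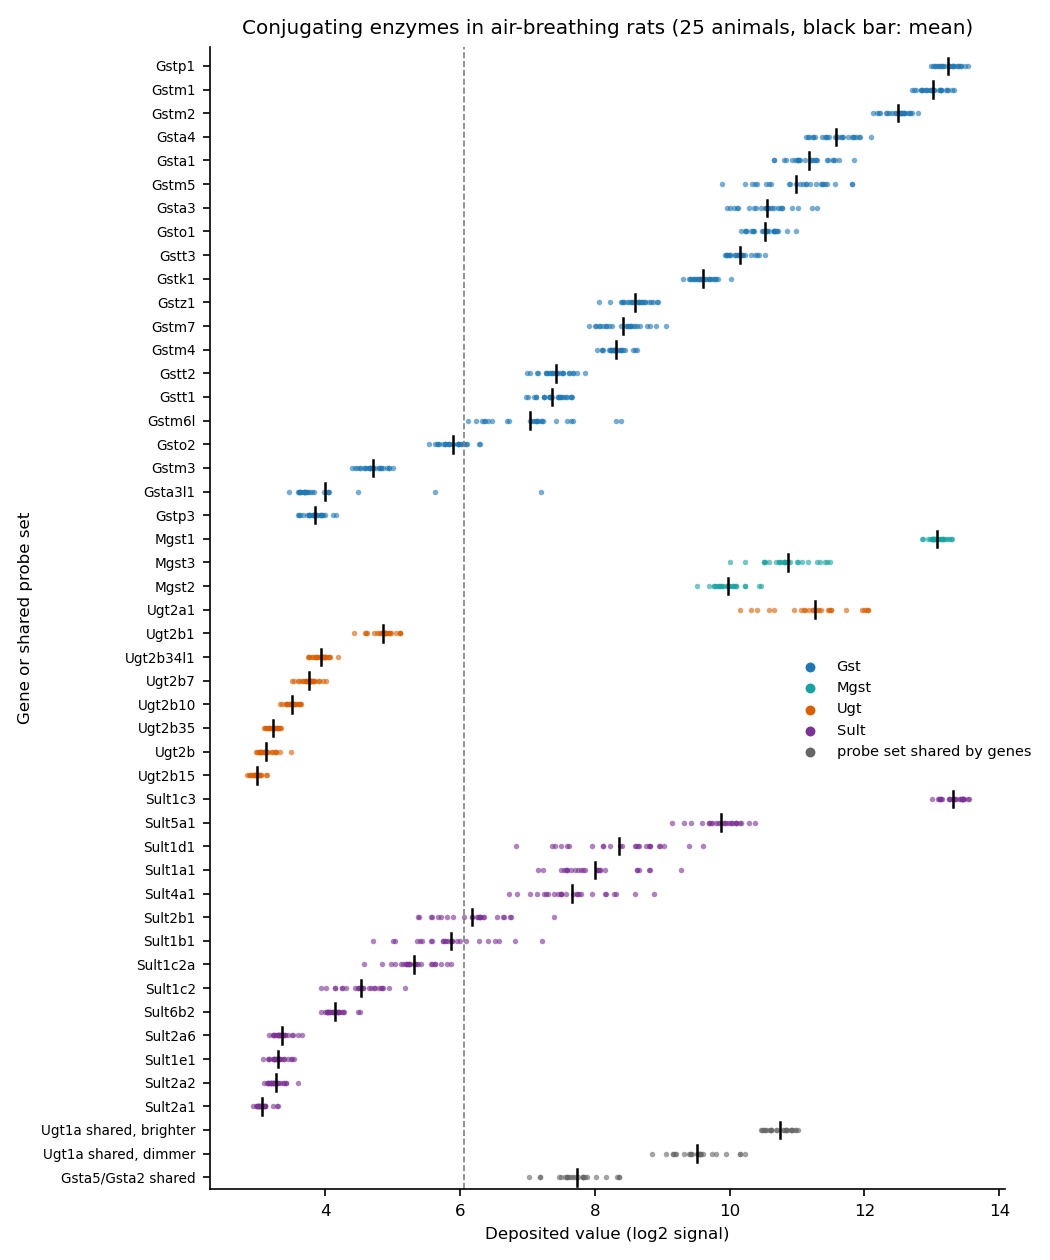
Deposited value (log2 signal, horizontal axis) of the 45 genes and the 3 shared probe sets in the 25 air rats, 1 point per rat, with the mean as a black bar and the median of all probe-set means, 6.05, as a dashed line. Gstp1, Gstm1, Mgst1 and Sult1c3 have means above 13, Ugt2a1 stands apart from the Ugt2b genes, and positions of different probe sets are not comparable as amounts.

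At 6 h of 15 ppm, the sulfotransferase Sult1c3 fell and the dim glucuronosyltransferase Ugt2b34l1 rose, both by less than a doubling, and no glutathione transferase passed the test. By limma, 2 of 45 genes passed an adjusted p of 0.05, against 8.49% of all probe sets (4.32% rose and 4.17% fell). The share among members was 4.44%, with 1 gene up and 1 down. At an unadjusted p of 0.05, 9 of 45 genes (20%) passed, and so did 20.2% of all probe sets. The median change over the members was -0.02 on the log2 scale and 0.01 over all probe sets, and the median size of change was 0.15 against 0.12. The comparison asks how the highest inhaled concentration altered these enzymes at 6 h.

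Sult1c3 read 13.46, 13.41, 13.48 and 13.53 in the air rats and 13.30, 13.13, 13.25 and 13.21 at 15 ppm. Every rat at 15 ppm was lower than every air rat. The change was -0.25 ± 0.08 (log2, SE, n = 4 per group; 95% interval -0.40 to -0.09; adjusted p = 0.03435), a fall of 1.19-fold. The other call, Ugt2b34l1, rose by 0.27 ± 0.09 (0.09 to 0.45; adjusted p = 0.04996) from a dim signal of 3.96, 4.00, 3.75 and 4.19 to 4.28, 4.26, 4.34 and 4.09, and those groups overlap. Both calls lie near the threshold: leaving out 1 rat at a time ended that of Sult1c3 in 6 of 8 cases (adjusted p up to 0.117) and that of Ugt2b34l1 in 6 of 8 (up to 0.272). With the air rats of the first array set as control, 9 members passed, and Sult1c3 (-0.15, adjusted p = 0.197) was not among them. That comparison crosses the array sets, between which air rats alone differed in 4.7% of all probe sets. The share of all probe sets that passed with this control is not given here.

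Gstp1 read 13.39, 13.31, 13.43 and 13.15 in air and 13.62, 13.50, 13.49 and 13.69 at 15 ppm. The groups did not overlap, yet the change of 0.25 ± 0.14 (-0.03 to 0.53) had an adjusted p of 0.3152. Gstt3 read 10.15, 9.95, 10.22 and 10.19 in air and 9.61, 9.90, 9.66 and 9.84 at 15 ppm, again without overlap, and its change of -0.37 ± 0.16 had an adjusted p of 0.1646. In all, 5 of 45 members had groups without overlap, beside 16.3% of all probe sets. Gsta1 differed by 0.32 (-0.17 to 0.81; adjusted p = 0.5223) with values of 11.45, 11.00, 11.54 and 11.21 in air and 11.46, 11.58, 11.53 and 11.90 at 15 ppm, which overlap.

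None of the other enzymes followed by name passed either. The changes of Gsta3 and Gsta4 were 0.14 and -0.03, those of Gstm1 and Gstm2 -0.19 and -0.21, and those of Gsto1 and Mgst1 0.11 and -0.15. Ugt2a1, Sult1a1 and Sult2b1 had changes of -0.35, -0.17 and -0.21. The brighter Ugt1a shared probe set had -0.30 (adjusted p = 0.4263), without overlap between the groups, and the dimmer one -0.59 (adjusted p = 0.2494). Of the Gst genes 6 were higher and 14 lower than in air, with changes from -0.37 to 0.32. The 95% interval lay within ±1, that is within a doubling or halving, for 21 of the 26 bright genes. The 5 exceptions were Gstm5, Gstm6l, Sult1d1, Sult4a1 and Ugt2a1, whose intervals were wider. The neutrophil marker mean was 5.92 to 6.40 in these air rats and 6.98 to 7.26 at 15 ppm, with 4 of 8 markers risen, and RNA integrity numbers ran from 7.3 to 7.8 and from 7.7 to 8.2. The part of the neutrophil markers in these values was not tested. In a fit with the integrity number as a covariate, Sult1c3 changed by -0.24 (adjusted p = 0.0737).

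Formaldehyde instilled as a solution lowered the mu-class enzyme Gstm2 and the theta-class enzyme Gstt3 relative to water, and no member rose past the test. By limma 2 of 45 members were called, or 4.44%, where 22.2% of all probe sets were (9.83% rose and 12.4% fell). At an unadjusted p of 0.05, 7 of 45 members (15.6%) and 33% of all probe sets passed. The median size of change was 0.13 over the members and 0.16 over all probe sets.

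Gstm2 read 12.63, 12.92, 12.76 and 12.94 after water and 12.23, 12.72, 12.50 and 12.18 after formaldehyde. Of the instilled rats 3 lay below every water rat and 1 among them. The change was -0.41 ± 0.11 (log2, SE, n = 4 per group; -0.63 to -0.18; adjusted p = 0.004399), and it stayed past the threshold whichever of the 8 rats was left out (-0.51 to -0.33). Against the air rats of the same array set, in place of water, it was -0.23 (adjusted p = 0.118), and with only the 2 groups in the fit its adjusted p was 0.0852.

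Gstt3 read 10.54, 10.19, 10.42 and 10.28 after water and 10.29, 10.10, 9.18 and 10.09 after formaldehyde. The change of -0.44 ± 0.16 (-0.77 to -0.11; adjusted p = 0.04252) rests on the third of these instilled rats, animal 372: without it the change was -0.20 (adjusted p = 0.435). The same rat was lowest of its group for Gsta1, Gsta3 and Sult1a1, at 11.14, 9.74 and 6.51. With animal 372 left out, or any of the water animals 352, 355 and 356, 1 member was called, and with instilled animal 365 left out 5 were.

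Sult1c3 read 13.40, 13.38, 13.47 and 13.40 after water and 13.36, 13.00, 13.23 and 13.28 after formaldehyde, with no overlap, and its change was -0.20 (adjusted p = 0.06203). Gstm1, also without overlap, differed by -0.34 (adjusted p = 0.06336), from 12.98, 13.19, 13.21 and 13.15 to 12.84, 12.85, 12.68 and 12.80. The third member whose groups stood apart was Sult1b1, a sulfotransferase of thyroid hormones. It counts as dim by its mean over the 98 arrays, 6.02, although every rat of these groups read above 6.05. Sult1b1 read 6.94, 6.94, 6.44 and 6.80 after water and 8.15, 6.99, 7.80 and 7.53 after formaldehyde. Its change by limma was 0.84 (0.07 to 1.60, adjusted p = 0.1106). In all, 3 of 45 members stood apart in this way, beside 18.7% of all probe sets.

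Gstp1 and Gsta1 had changes of -0.02 and -0.03, Gsta3 and Gsta4 of -0.44 and 0.08, Gsto1 and Mgst1 of -0.14 and -0.15. Ugt2a1, Sult1a1 and Sult2b1 had -0.38, -0.42 and 0.13, and none of these passed. The water means of Gstp1 and Gsta1, 13.56 and 11.84, lay above the means of air rats in the same array set, 13.32 and 11.30. For 22 of the 26 bright members the 95% interval lay within ±1. Of the 8 neutrophil markers 7 rose, and their mean ran from 6.25 to 6.75 after water and from 8.18 to 9.05 after formaldehyde. The ciliated marker mean was 8.79 to 9.25 after water and 8.17 to 8.35 after formaldehyde, with 2 of 5 markers fallen, and the olfactory mean was 8.62 to 10.07 after water and 8.61 to 9.37 after formaldehyde. Whether these shifts had a part in the falls of Gstm2 and Gstt3 was not tested.

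**Figure D2:**
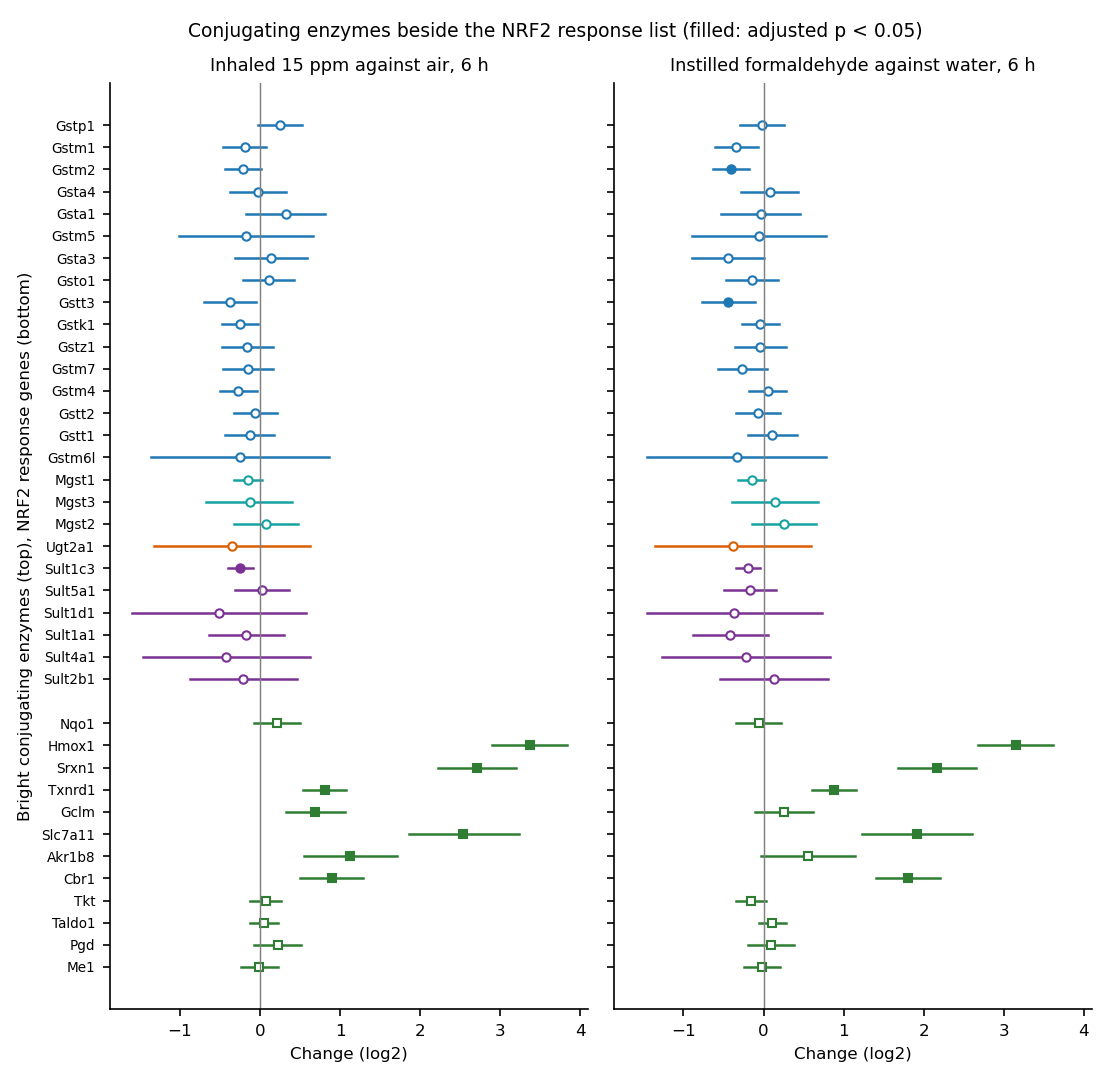
Change on the log2 scale with its 95% interval (horizontal axis) for the 26 bright conjugating enzymes (circles, coloured by family) and the 12 NRF2 response genes (squares), for inhaled 15 ppm (left) and instilled formaldehyde (right), 4 rats per group; filled symbols passed the test. The filled circles are Sult1c3 on the left (-0.25) and Gstm2 and Gstt3 on the right (-0.41 and -0.44), and Hmox1 lies at 3.37 and 3.15.

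No member passed the test of the difference between the routes. The 15 ppm change minus the instillation change passed for 0 of 45 members by limma and for 0.879% of all probe sets, and 2 members passed at an unadjusted p of 0.05. The interval of that difference was within ±1 for 17 of the 26 bright members, and reached past a doubling for the other 9, among them Gsta1, Gsta3 and Ugt2a1. Gsta3 had the highest difference, 0.58, and Sult1b1 the lowest, -0.57. Water alone against air gave 0 of 45 by limma, with 4 at an unadjusted p of 0.05, and 0.0129% of all probe sets. For both tests the percentage is at the adjusted threshold, and no unadjusted share of all probe sets is given. Ugt2a1 was nevertheless lower after water in every rat: 11.96, 11.47, 11.35 and 11.51 in air and 10.78, 9.83, 10.38 and 10.86 after water (-1.11, -2.08 to -0.14; adjusted p = 0.4143). Sult1d1 too was lower in every water rat, at 6.90 to 7.72 against 8.12 to 8.80 in air. Gsta1, Gstp1, Gstt1 and Mgst2 were higher in every water rat. The share of all probe sets without overlap is not given for this comparison. These separations therefore do not tell whether the members differ more often than other genes. Gsta1 read 11.00 to 11.54 in air and 11.70 to 11.98 after water. Gstp1 read 13.15 to 13.43 in air and 13.51 to 13.62 after water. The olfactory marker mean was 10.26 to 10.99 in those air rats and 8.62 to 10.07 in the water rats; its part in the Ugt2a1 difference was not tested.

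Among genes that supply or serve the conjugating enzymes, Hmox1, Srxn1 and the cystine carrier Slc7a11 rose in both 6 h comparisons, and the conjugate transporters Abcc4 and Abcc5 fell in both. The lists were chosen with earlier results of these data known, so their counts describe the genes listed and do not test the pathways. Beside all list counts below, 4.32% of all probe sets rose and 4.17% fell at 15 ppm. After instillation 9.83% rose and 12.4% fell. Of 12 NRF2 response genes other than the members, 7 rose at 15 ppm and none fell, with a median change of 0.75. Hmox1, which breaks down heme, rose by 3.37 ± 0.23 on the log2 scale (SE; adjusted p = 2.03e-19). Srxn1, which repairs peroxiredoxins, rose by 2.71, Slc7a11 by 2.54 and the oxidoreductase Akr1b8 by 1.13. Nqo1, a quinone reductase and textbook NRF2 target, differed by 0.21 and did not pass by limma (adjusted p = 0.455). It did pass in the average over times at 6 ppm given below. After instillation 5 of 12 rose, with a median of 0.40 and Hmox1 at 3.15, Srxn1 at 2.17, Slc7a11 at 1.92 and Cbr1 at 1.80.

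Of the 9 genes of glutathione supply, 3 rose at 15 ppm: Slc7a11, its partner Slc3a2 by 0.24, and Gclm, the modifier subunit of glutamate-cysteine ligase, by 0.69 (adjusted p = 0.00723). Slc7a11 and Gclm belong to the NRF2 list as well. After instillation Slc7a11 and Slc3a2 rose by 1.92 and 0.29, and Oplah, which recycles 5-oxoproline, fell by 0.66. Of 10 genes that supply the other cosubstrates, Papss1, a PAPS synthase, fell by 0.37 at 15 ppm (adjusted p = 0.00167) and by 0.47 after instillation (adjusted p = 1.26e-05). Ugp2, which makes UDP-glucose, and the nucleotide sugar carrier Slc35d2 fell by 0.27 and 0.42 after instillation.

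At 15 ppm 3 of 11 genes of efflux and removal fell and none rose, where 4.17% of all probe sets fell. They were 2 of the 7 transporters listed, Abcc4 by 0.75 and Abcc5 by 0.43, and the lysosomal glucuronidase Gusb by 0.42. After instillation Abcc4, Abcc1 and Abcc5 fell by 0.98, 0.74 and 0.71, 3 of the 7 transporters; 4 of 11 genes fell in all, where 12.4% of all probe sets fell, and the steroid sulfatase Sts rose by 1.11. Abcc2, Abcc3, Abcc6 and Abcg2 passed in neither comparison, with changes of 0.18, 0.12, 0.13 and 0.29 at 15 ppm. Of 11 genes that turn glutathione conjugates into mercapturates, none passed at 15 ppm. After instillation 3 rose, among them Ggt5 (0.87) and Ggt1 (0.82), where 9.83% of all probe sets rose. Another 2 fell, the N-acetyltransferase Nat8 by 0.57 and the peptidase Anpep by 0.51, where 12.4% of all probe sets fell. Of 12 other conjugating and hydrolysing enzymes, the epoxide hydrolase Ephx1 fell by 0.36 and 0.50 in the 2 comparisons, and the thiopurine methyltransferase Tpmt rose by 0.45 after instillation. Among 14 regulators the small Maf proteins, which pair with NRF2 on DNA, rose: Maff by 2.98, Mafk by 1.01 and Mafg by 0.59 at 15 ppm, beside their repressor partner Bach1 by 0.38, and Ppara fell by 0.30.

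At 6 ppm and below, no member passed the test at any single time. In 0 of 45 cases did limma call a member at 6 ppm after 6 h, 24 h, 5 days, 8 days or 19 days, while 0.245%, 0.00322%, 0.119%, 0.029% and 0.412% of all probe sets passed. At an unadjusted p of 0.05, 3, 5, 1, 0 and 6 members passed at those times. At 2 ppm the counts were 0 of 45 at each of the 5 times, with 2, 2, 1, 3 and 5 members at an unadjusted p of 0.05, and the shares of all probe sets were 0.00322%, 0%, 0.0741%, 0% and 0%. At 0.7 ppm they were again 0 of 45, with 1, 5, 0, 1 and 4 members unadjusted, and 0%, 0%, 0.00644%, 0% and 0% of all probe sets. All these percentages are at the adjusted threshold. The share of all probe sets at an unadjusted p of 0.05 is not given, so the unadjusted counts have no background here. At 6 ppm and 6 h the 95% interval lay within ±0.5 for 12 of the 26 bright members.

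Over these 15 comparisons the main enzymes lay on both sides of 0. Gstp1 ranged from -0.14 (2 ppm, 6 h) to 0.21 (2 ppm, 8 days) and Mgst1 from -0.07 to 0.13. Sult1c3 ranged from -0.09 to 0.18, Gsto1 from -0.28 to 0.17, Gstm1 from -0.22 to 0.23 and Gstm2 from -0.20 to 0.27. Gsta1 ranged from -0.18 to 0.41 and was above 0 in 10 of 15 comparisons, Gsta3 from -0.25 to 0.39 and Gsta4 from -0.23 to 0.22. Wider ranges belonged to Ugt2a1 (-0.36 to 0.61), Sult1a1 (-0.38 to 0.72) and Sult2b1 (-0.56 to 0.62). The 3 doses share the air rats of each time, so these values are not independent of each other.

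**Figure D3:**
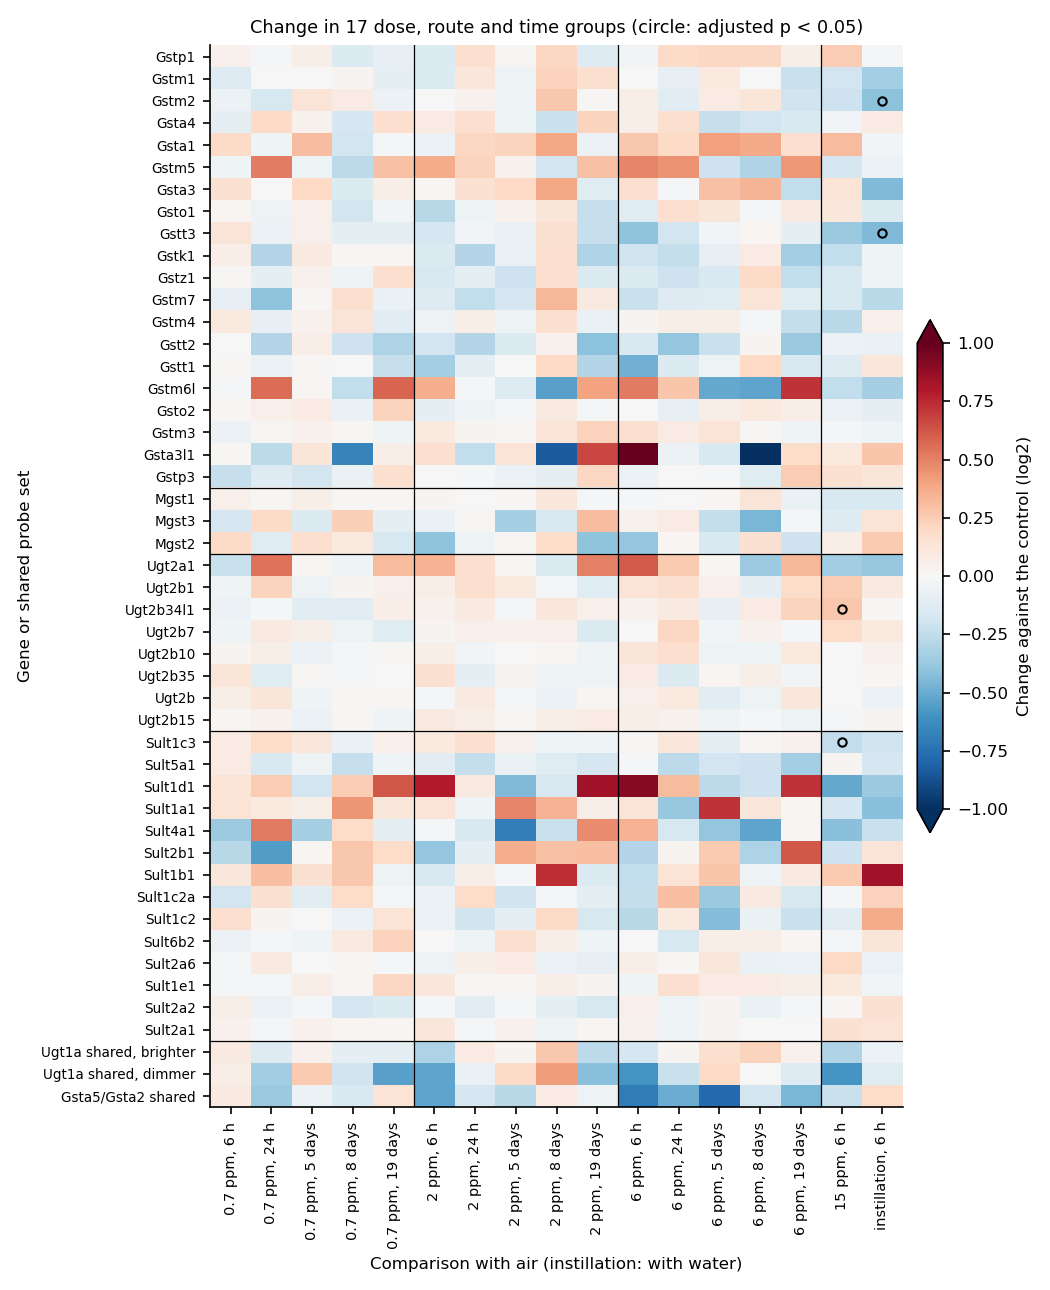
Change on the log2 scale (colour, cut at -1 and 1) of the 45 genes and the 3 shared probe sets (vertical axis, by family) in 17 comparisons (horizontal axis: 0.7, 2 and 6 ppm at 5 times, 15 ppm and instillation at 6 h), with a circle where a gene passed the test. The 4 circles are Sult1c3 and Ugt2b34l1 at 15 ppm and Gstm2 and Gstt3 after instillation.

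Averaged over the 5 times, 6 ppm lowered the theta-class Gstt2, the kappa-class Gstk1 and the Gsta5/Gsta2 shared probe set. By limma 2 of 45 members were called, 4.44%, where 6.37% of all probe sets were (2.82% rose and 3.54% fell). At an unadjusted p of 0.05, 5 members passed, and the share of all probe sets at that threshold is not given. Gstt2 fell by 0.22 ± 0.06 (SE; adjusted p = 0.01612), and Gstk1 fell by 0.16 ± 0.05 (adjusted p = 0.04898). Gstt2 read 7.74, 7.51, 7.61 and 7.61 in air and 7.19, 7.26, 7.38 and 7.09 at 6 ppm after 24 h, where the groups do not overlap. Its changes at the 5 times were -0.15, -0.39, -0.22, 0.03 and -0.37. A second probe set of Gstt2, with a dimmer signal, changed by 0.02 ± 0.04. The call of Gstk1 was lost in 29 of 41 cases when 1 rat was left out (adjusted p up to 0.0839), and that of Gstt2 in none.

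The Gsta5/Gsta2 shared probe set, which cannot tell these alpha-class genes apart, was the most changed of all 48 in this average: -0.52 ± 0.10 (-0.72 to -0.32; adjusted p = 0.0004364), and past the threshold in 41 of 41 cases with 1 rat left out. At 6 h it read 7.82, 7.82, 8.35 and 8.36 in air and 7.33, 7.33, 7.53 and 7.36 at 6 ppm. At 5 days it read 8.01, 7.58, 7.58 and 7.82 in air and 7.06, 7.06, 6.71 and 7.05 at 6 ppm. The groups stood apart at 6 h, 24 h and 5 days and overlapped at 8 and 19 days, with changes of -0.70, -0.50, -0.78, -0.18 and -0.46 in order of time. The value at 15 ppm was -0.22 (adjusted p = 0.6612) and after instillation 0.18 (adjusted p = 0.6243). The same probe set also differed between air rats of the 2 array sets.

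Gsta1 and Gstp1 moved the other way without passing, at 0.29 (0.07 to 0.50; adjusted p = 0.09775) and 0.13 (0.00 to 0.25; adjusted p = 0.202). The averages of Gsta3, Gsta4, Gstm1 and Gstm2 were 0.11, -0.07, -0.04 and -0.01. Intervals of all 26 bright members lay within ±1, and those of 20 within ±0.5. In the same average 7 of 12 NRF2 response genes rose (median 0.33), where 2.82% of all probe sets rose. That list too was chosen with earlier results of these data known. Srxn1 was at 1.29, Hmox1 at 1.16, Slc7a11 at 1.12 and Akr1b8 at 0.65. Nqo1 rose by 0.31 (limma, adjusted p = 0.00112). The 2 ppm average gave 0 of 45 by limma (5 at an unadjusted p of 0.05; 0.361% of all probe sets), with Gstt2 at -0.20 (adjusted p = 0.1299), and Gstt2 was called when 8 days was left out. The 0.7 ppm average gave 0 of 45 (3 unadjusted; 0% of all probe sets). No member passed the test of whether the 6 ppm change differs across the 5 times. This limma F-test gave 0 of 45, with 3 unadjusted, and 0.0129% of all probe sets. For these averages and the F-test, no unadjusted share of all probe sets is given.

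The phenol sulfotransferase Sult1a1 was highest at 24 h in air, and Sult1c3 was lowest then. Within the air rats 2 of 45 members differed across the 5 times by limma F-test, against 11.4% of all probe sets. Sult1a1 was highest at 24 h, with 8.80, 8.63, 8.82 and 9.28, a mean of 8.88. The other means in air were 8.30 at 6 h, 7.78 at 5 days, 7.72 at 8 days and 7.79 at 19 days (adjusted p = 0.0002426). Sult1c3 was lowest at 24 h, at 13.00, 13.15, 13.10 and 13.12, where its means at the other times ran from 13.23 to 13.38 (adjusted p = 0.01719; 0.0763 without animal 54 of 24 h). Averaged over air and the 3 doses, 23 of 45 members, 51.1%, differed across times, close to the 54.7% of all probe sets. Sult1a1 led them (adjusted p = 1.144e-10), with means over those groups of 8.40, 8.80, 8.09, 7.94 and 7.84 in order of time. The naming of the arrays in the labels changes with the time of collection, so time and array handling cannot be told apart.

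**Figure D4:**
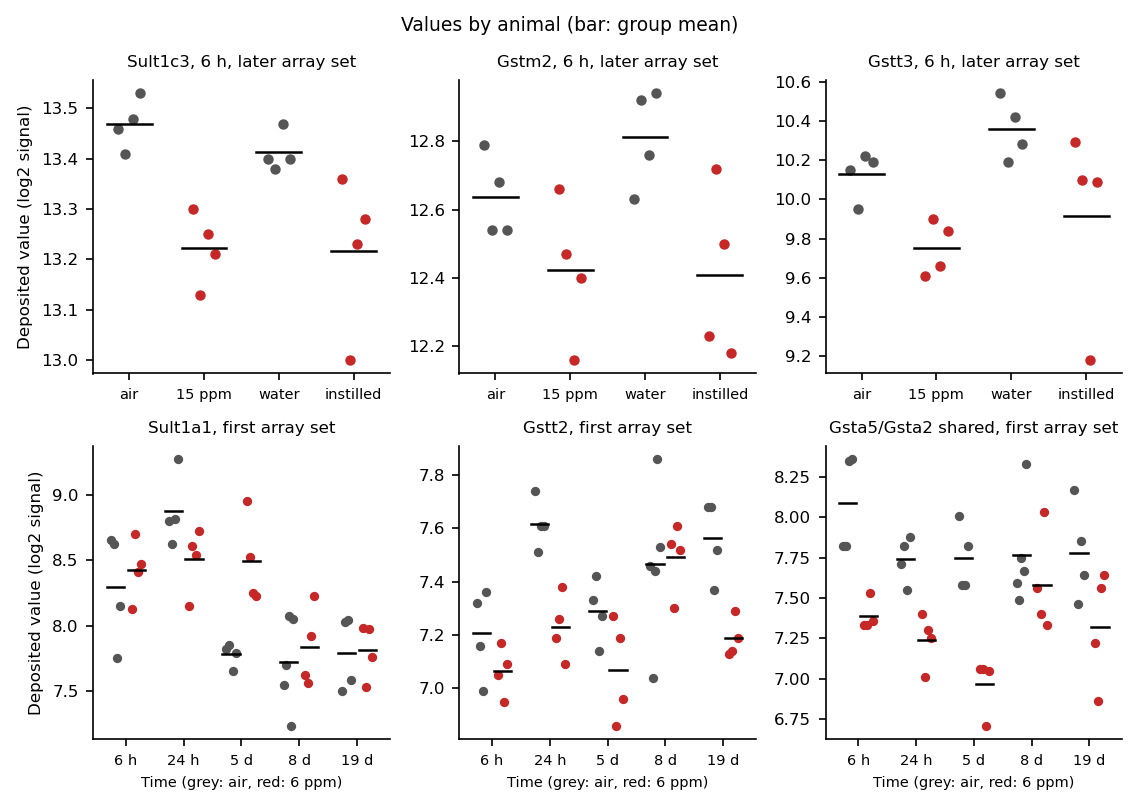
Deposited value (log2 signal, vertical axes) of each rat, with group means as bars: Sult1c3, Gstm2 and Gstt3 at 6 h in the later array set (top), and Sult1a1, Gstt2 and the Gsta5/Gsta2 shared probe set by time in air (grey) and at 6 ppm (red) in the first array set (bottom). Sult1c3 at 15 ppm (13.13 to 13.30) lies below air (13.41 to 13.53), 1 instilled rat holds the lowest Gstt3 value (9.18), and Sult1a1 in air is highest at 24 h.

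Air rats of both array sets at 6 h differed in 1 of 45 members, against 4.7% of all probe sets. At an unadjusted p of 0.05, 4 members passed, and the share of all probe sets at that threshold is not given. Sult5a1 was 9.90, 10.03, 9.70 and 10.01 in the first set and 9.32, 9.43, 9.14 and 9.59 in the later one, without overlap (-0.54 ± 0.17; adjusted p = 0.0406). The Gsta5/Gsta2 shared probe set read 7.82, 7.82, 8.35 and 8.36 in the first set and 7.02, 7.61, 7.18 and 7.18 in the later one (-0.84 ± 0.23; adjusted p = 0.01708). For that probe set the gap between control groups was larger than any of its changes with exposure. The air levels given first join both sets, while each exposure was compared with controls of its own set.

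Rats of the same group differed widely in some of these enzymes and little in others. The SD within groups, pooled over the 24 groups, had a median of 0.24 over the 26 bright members and of 0.18 over all 15521 bright probe sets. The steadiest bright members were Sult1c3 at 0.11 and Mgst1 at 0.12, at percentiles 8 and 14 of the bright probe sets. The most variable bright members were Gstm6l at 0.81, Sult1d1 at 0.79, Sult4a1 at 0.76 and Ugt2a1 at 0.70. The intervals of the changes with formaldehyde are computed from the same spread, so these genes also had the widest ones.

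The variation of several members ran along with markers of cell types. Values were first centred on each group's mean, and each member was then set against the mean of 4 marker lists over the 98 rats, 180 relations in all, of which 62 passed an adjusted permutation p of 0.05 for Pearson's r. With the olfactory mean 9 members had a positive and 11 a negative relation. No share over all probe sets is given for such relations. These counts therefore do not tell whether members follow the markers more often than other genes. Sult4a1 followed it at r = 0.95 (rho = 0.95; r = 0.95 without the 2 rats farthest out; 0.98 in the first array set and 0.72 in the later one). Ugt2a1 gave r = 0.90 (rho = 0.90; 0.89 without the 2 rats; 0.91 and 0.80), Sult1d1 0.87 (rho = 0.88; 0.86; 0.88 and 0.78) and Mgst3 0.86 (rho = 0.86; 0.85; 0.91 and 0.49). Each of these 4 had an adjusted permutation p of 0.000106 for r and for rho, which rests on 1e-05, the smallest that 100000 permutations can give. Gstm6l and Gstm5 followed at 0.81 and 0.78 and Gsta4 at 0.71, while Mgst2 and Gsto1 ran the other way at -0.65 (-0.69 and -0.19 in the 2 array sets) and -0.63 (-0.68 and 0.02).

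Other members went with other cell types. Gstz1, an isomerase of tyrosine breakdown, followed the ciliated mean at r = 0.87 (rho = 0.84; 0.84 without the 2 rats farthest out; 0.91 and 0.42 in the 2 array sets; adjusted permutation p = 0.000106 for both). Sult2b1 followed the basal and squamous mean at r = 0.86 (rho = 0.87; 0.86; 0.86 and 0.91; adjusted permutation p = 0.000106 for both). The dim Sult1c2a followed the secretory mean at r = 0.72 (rho = 0.73; 0.75; 0.67 and 0.93; adjusted permutation p = 0.000106 for both). The marker and the enzyme in each pair come from the same array, and a share of cells and the RNA per cell cannot be told apart here.

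**Figure D5:**
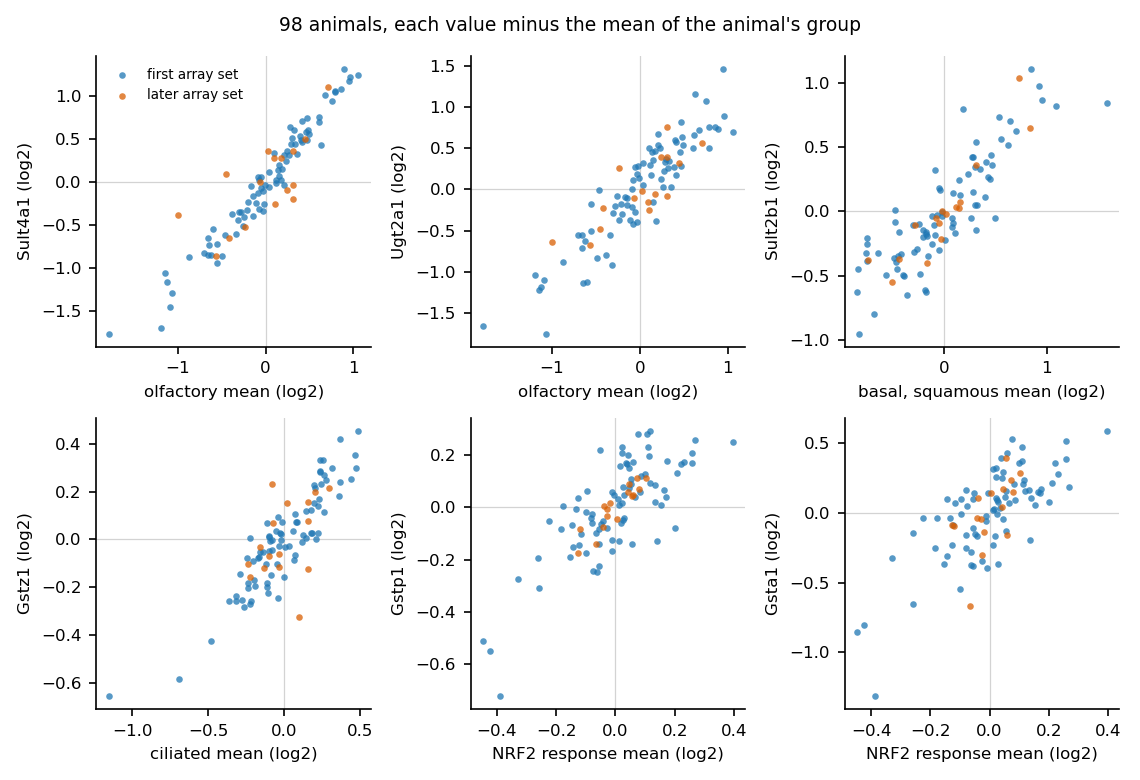
Values of single rats after the mean of the rat's group was taken away (log2, both axes), for 6 enzymes against the mean of a gene list, 98 rats, first array set in blue and later array set in orange. Sult4a1 lies closest to a line (r = 0.95), and Gstp1 and Gsta1 against the NRF2 response genes give r = 0.77 and 0.74.

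Gstp1, Gsta1 and Mgst2 varied with the NRF2 response genes as well as with cell type markers; the NRF2 relation was looked for after the values had been seen. With the olfactory mean Gstp1 gave r = -0.48 (rho = -0.44; -0.46 without the 2 rats farthest out; -0.49 and -0.46 in the 2 array sets; adjusted permutation p = 0.0013) and Gsta1 -0.39 (rho = -0.32; -0.34; -0.43 and -0.02; adjusted permutation p = 0.0109). Gstp1 also followed the secretory mean at 0.41 (rho = 0.41; 0.45; 0.45 and 0.10; adjusted permutation p = 0.00515), and Mgst2 the secretory mean at 0.51 and the basal and squamous mean at 0.44. The part of these markers in the NRF2 relation was not tested. Across the 98 rats, and with group means taken away, Gstp1 followed the mean of the 12 genes at r = 0.77 (rho = 0.73; 0.72 without the 2 rats farthest out; 0.77 and 0.91 in the 2 array sets; adjusted permutation p = 7.5e-05 for r and 9e-05 for rho over 45 members). Mgst2 gave r = 0.76 (rho = 0.69; 0.71; 0.78 and 0.39), Gsta1 0.74 (rho = 0.70; 0.68; 0.75 and 0.59), Gstt3 0.60 (rho = 0.55; 0.56; 0.66 and 0.30) and Gsta3 0.55 (rho = 0.46; 0.50; 0.59 and 0.40). In all 10 members ran with the list and 4 against it, Sult4a1 at -0.46 and Ugt2a1 at -0.42 among the latter. The share of all probe sets that would do so is not given here either. Of the 325 pairs of bright members 102 had a positive and 48 a negative r at an adjusted permutation p of 0.05, with a median r of 0.11. No share is given for pairs of other bright probe sets. The count therefore does not tell whether members run together more often than other genes. Gsta1 ran with Gstp1 at r = 0.86 (rho = 0.81; 0.81 without 2 rats; 0.89 and 0.64), with Gsta3 at 0.85 (rho = 0.81; 0.83; 0.86 and 0.90) and with Gstt3 at 0.84 (rho = 0.80; 0.83; 0.85 and 0.88; adjusted permutation p = 5.91e-05 for each r and 5.8e-05 for each rho). Gstm5 and Gstm6l ran together at 0.95, and closely related genes may share probes.

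Promoters of 4 genes that co-varied with the NRF2 list, 3 with a motif and 1 without, are shown because NRF2 with a small Maf protein is known to bind the antioxidant response element, whose core was searched as TGACNNNGC on both strands, beside GCGTG, the core bound by the aryl hydrocarbon receptor. RefSeq promoters of the GRCr8 build, windows of 300 bases that span the start of the gene, were at hand for 38 of the 45 members. The first core is in 6 of 38 (15.8%: Gsta1, Gsta3, Gstm5, Gstm7, Gstp1 and Gstz1) and in 12.2% of 27457 promoters of the same length, and the second in 8 of 38 (21.1%) and 31.1%. How many of the members that ran with the NRF2 list carry the first core is not given here. The promoters shown therefore do not tell whether the core goes with that relation. The 2 motifs can overlap, as they do in Gstm5. Capitals mark a match on either strand; the sequences run 5′ to 3′ along the gene. Gstp1 has the first core at bases 190 to 198 and the second, read on the other strand, at 13 to 17 and 281 to 285. Gsta3 has the first at 234 to 242 and Gsta1 at 281 to 289. Gstt3, which followed the NRF2 list more closely than Gsta3, has neither, nor has the dim Sult1b1, and no promoter of Mgst2 was used here. Of 5 NRF2 response genes searched in the same way (Gclm, Nqo1, Slc7a11, Srxn1 and Txnrd1), only Gclm has the first core. Gstm2, shown because its fall after instillation held whichever rat was left out, has neither in this window.
Gstp1 promoter, chr1:210769656-210769955: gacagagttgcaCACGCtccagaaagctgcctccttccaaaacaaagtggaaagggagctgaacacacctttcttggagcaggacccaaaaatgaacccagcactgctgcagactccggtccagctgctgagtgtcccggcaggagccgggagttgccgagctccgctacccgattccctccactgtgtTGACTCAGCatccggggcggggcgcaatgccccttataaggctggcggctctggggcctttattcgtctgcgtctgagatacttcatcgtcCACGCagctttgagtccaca
Gsta1 promoter, chr9:31216483-31216782: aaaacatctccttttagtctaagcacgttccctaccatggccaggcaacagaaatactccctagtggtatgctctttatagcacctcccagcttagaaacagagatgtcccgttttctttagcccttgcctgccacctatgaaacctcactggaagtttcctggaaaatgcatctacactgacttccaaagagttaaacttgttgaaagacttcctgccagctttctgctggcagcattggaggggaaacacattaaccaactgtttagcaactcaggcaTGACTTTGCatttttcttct
Gsta3 promoter, chr9:31154739-31155038: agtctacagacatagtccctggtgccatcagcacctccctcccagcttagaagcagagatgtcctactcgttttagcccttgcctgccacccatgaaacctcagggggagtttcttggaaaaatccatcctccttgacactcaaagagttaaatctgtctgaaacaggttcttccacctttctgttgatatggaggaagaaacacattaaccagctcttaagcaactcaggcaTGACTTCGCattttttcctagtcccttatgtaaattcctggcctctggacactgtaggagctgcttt
Gstt3 promoter, chr20:12874368-12874667: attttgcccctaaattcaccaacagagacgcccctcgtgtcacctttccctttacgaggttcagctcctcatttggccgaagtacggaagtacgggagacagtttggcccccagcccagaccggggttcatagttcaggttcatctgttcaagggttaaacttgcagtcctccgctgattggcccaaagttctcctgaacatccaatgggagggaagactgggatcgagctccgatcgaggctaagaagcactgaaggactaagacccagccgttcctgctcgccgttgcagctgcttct
Gstm2 promoter, chr2:198316868-198317167: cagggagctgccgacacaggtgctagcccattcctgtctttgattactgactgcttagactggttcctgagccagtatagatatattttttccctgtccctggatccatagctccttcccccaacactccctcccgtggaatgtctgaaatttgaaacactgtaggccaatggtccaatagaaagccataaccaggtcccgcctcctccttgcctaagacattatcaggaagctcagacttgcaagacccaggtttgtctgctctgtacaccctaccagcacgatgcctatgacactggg
Gstp1, Gsta1 and Gstm2 lie on the minus strand and Gsta3 and Gstt3 on the plus strand. A match is a description of letters and not a measured binding site. Of the 3 genes with the first core shown here, none passed the test at 15 ppm or after instillation. Their changes were 0.25 and -0.02 for Gstp1, 0.32 and -0.03 for Gsta1, and 0.14 and -0.44 for Gsta3. Hmox1 rose by 3.37 and 3.15. The controls differ between these comparisons, and Gstp1 and Gsta1 read higher in every water rat than in the air rats of that array set. No member passed the test of water against air.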

How the data were processed

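RNA of nasal epithelial cells was measured on Rat230_2 expression arrays, 1 per rat, 98 in all. The authors deposited log2 signals per probe set; their normalization method was not given in the sources used here, and the sorted values of the arrays nearly coincide (largest SD across arrays 0.065 at a rank). Of 31099 probe sets 57 controls were left out. By the platform annotation 20826 have 1 gene symbol, 436 several and 9780 none. A single cell-means model over 24 groups (74 residual degrees of freedom) was fitted in limma 3.58.1 (R 4.3.3), with Benjamini-Hochberg adjustment over 31042 probe sets in each of 26 comparisons and calls at an adjusted p under 0.05. The model was tested on simulated data. The labels do not say that rats of a group were exposed separately, so p-values measure the spread between these rats.

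Named were the called members of each comparison, a fixed set of main enzymes, and up to 4 genes per list, called ones first and then those with the largest change. Members and lists were chosen with earlier results of these data known. Correlations used values centred on group means and 100000 permutations, with Benjamini-Hochberg adjustment within the 180 marker relations, the 325 pairs or the 45 relations to the NRF2 list. The NRF2 correlation and the fits without 8 days were chosen after seeing the data. Other alternatives were cyclic loess, bright probe sets only, a trended robust prior, the mean of a gene's probe sets, the RNA integrity number as covariate, only the compared groups, other controls, and leaving out each rat. Protein sequences were not used here. In 1 group, 0.7 ppm at 8 days, a label field gives another dose than the title, and the title was followed.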

Additional observations from a re-analysis of the deposited data

Results flagged for a closer look

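Among 58 groups of 4 or 5 rats examined for some of the genes named above, 3 held 1 rat far from the rest, where chance gives about 1 in 20 groups. For Sult1c3 in air at 8 days, the lowest rat read 13.12 and the other 4 read 13.42 to 13.46. For the Gsta5/Gsta2 shared probe set at 6 ppm and 6 h, the highest rat read 7.53 and the others 7.33 to 7.36, all below the air rats of that time. For the same probe set at 6 ppm and 5 days, the lowest rat read 6.71 and the others 7.05 to 7.06. The dim Gsta3l1 is not part of this count, although it held a rat much farther from its group. At 6 ppm and 6 h its highest rat read 11.30 and the others 3.77 to 3.87. In air at 8 days Gsta3l1 read 4.06, 3.64, 7.20, 3.70 and 5.63. Its pooled SD within groups was 0.90.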

How the results depend on the processing

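Of 92 counts of called members under the alternatives, 78 stayed within 1.5 times and 14 moved. The shares of all probe sets that passed under each alternative are not given here, so a moved count need not be particular to the members. At 15 ppm (2 called) the count was 1 under cyclic loess, 1 with bright probe sets only, 1 with the RNA integrity number and 1 with only the compared groups (Gstt3), and 9 with first-set air as control. After instillation (2 called) it was 4 with bright probe sets only and 6 with air as control. For the 6 ppm average (2 called) it was 1 under cyclic loess, 1 with the mean of a gene's probe sets and 1 with the integrity number. For times averaged over doses (23 called) it was 15 with bright probe sets only, where fewer genes are tested. For air of the later against the first array set (1 called) it was 2 with bright probe sets only and 3 with only those groups. The 2 ppm average (0 called) gave 1 without 8 days. Elsewhere the cause was not tested. Leaving out 1 rat gave 0 to 1 calls at 15 ppm, 1 to 5 after instillation, 0 to 1 at 6 ppm and single times (1 without animal 283 of 6 h), 1 to 2 for the 6 ppm average, 1 to 3 for times in air, 20 to 24 for averaged times and 0 to 2 for air of both sets. Of 310 values of single genes 286 kept their side of the threshold, 16 lost it, 8 gained it and 0 turned sign. Under cyclic loess 62.7% of all probe sets called at 15 ppm rose, against 50.8% as deposited. No paired analysis was possible because the animal numbers differ from group to group and every rat was hybridised once.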
